A study of Mus musculus with 12 samples.

Results

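The 10 genes described here are core parts and direct outputs of the circadian clock: the activator Bmal1, the repressors Per1, Per2, Per3, Cry1, Cry2 and Ciart, the nuclear receptors Nr1d1 and Nr1d2, and the output factor Dbp. They were taken as known genes of the clock, with earlier results of these data known, and all 10 were found among the 56941 genes of the count tables and among the 20341 genes with enough reads to be tested. Bulk RNA was sequenced from the cerebellum of 12 mice, 3 in each of 4 groups, all at 16 weeks of age. WT sedentary and WT exercise mice were C57BL/6J, and SCA1 sedentary and SCA1 exercise mice were heterozygous for the Atxn1 154Q/2Q knock-in, a model of spinocerebellar ataxia type 1 in which every cell carries an expanded CAG repeat in 1 copy of Atxn1. Exercise mice lived alone with a running wheel from 4 to 16 weeks of age, while sedentary mice were group-housed, so running and solo housing cannot be told apart. Wheels were taken away some days before behavioural testing, which took place in the light phase of the day. The brains were collected after the last test. The hour of collection is not given in the sources used here.

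In the clock of mammalian cells, BMAL1 pairs with CLOCK and binds E-box sequences near the Per, Cry, Nr1d1, Nr1d2, Dbp and Ciart genes, whose transcripts rise. The PER and CRY proteins then return to the nucleus and repress BMAL1 and CLOCK, and CIART is a further repressor. NR1D1 and NR1D2 repress Bmal1 through RORE sequences, at which ROR proteins activate, so that Bmal1 transcripts peak at about the opposite time of day from those of Nr1d1 and Dbp. DBP acts on D-box sequences, which are found near Per genes among others. Per1 and Per2 also respond to stimuli outside the loop, such as neuronal activity and glucocorticoids.

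The sequences just upstream of 4 of these genes are shown because Per1, Per2 and Cry2 were positively correlated over the mice, and Bmal1 and Per2 negatively over 10 of the 12 libraries, as described further on. Each is the 250 bases before the start of the gene's canonical GENCODE transcript, read from the GRCm39 genome, the build of all positions given, from 5′ to 3′ on the gene's strand. Capitals mark an E-box (CACGTG), its variant CACGTT, a D-box (TTANNTAA) or a RORE core (TAGGTCA). A further motif, the CRE (TGACGTCA), was searched too. All were searched on both strands, so that the variant can also read AACGTG.
Per1, chr11:68989018-68989267, plus strand: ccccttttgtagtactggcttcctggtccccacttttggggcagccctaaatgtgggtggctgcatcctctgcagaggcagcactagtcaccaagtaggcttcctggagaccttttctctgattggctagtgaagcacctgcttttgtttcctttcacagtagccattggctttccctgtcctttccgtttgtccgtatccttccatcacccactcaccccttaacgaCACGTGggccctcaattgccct
Per2, chr1:91387047-91387296, minus strand: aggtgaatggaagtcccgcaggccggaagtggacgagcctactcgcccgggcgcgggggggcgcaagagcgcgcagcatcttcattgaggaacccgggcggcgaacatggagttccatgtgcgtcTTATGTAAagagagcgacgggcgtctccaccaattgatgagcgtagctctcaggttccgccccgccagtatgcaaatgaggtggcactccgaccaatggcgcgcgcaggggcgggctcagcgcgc
Cry2, chr2:92264475-92264724, minus strand: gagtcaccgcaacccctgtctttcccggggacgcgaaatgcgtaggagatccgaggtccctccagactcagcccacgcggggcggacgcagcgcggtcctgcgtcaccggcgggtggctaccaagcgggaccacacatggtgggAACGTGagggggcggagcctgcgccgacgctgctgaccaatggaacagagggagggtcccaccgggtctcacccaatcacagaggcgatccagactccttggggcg
Bmal1, chr7:112806393-112806642, plus strand: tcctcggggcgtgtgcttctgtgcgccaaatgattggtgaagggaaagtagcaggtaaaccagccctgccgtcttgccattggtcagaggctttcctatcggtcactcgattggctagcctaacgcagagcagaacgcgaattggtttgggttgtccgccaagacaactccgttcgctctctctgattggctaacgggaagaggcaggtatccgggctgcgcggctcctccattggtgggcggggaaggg
The Per1 window held 1 E-box, starting 22 bases before the transcript start, and lies within the span of a longer Per1 transcript. The Per2 window held 1 D-box, 125 bases before the start, and the Cry2 window held 1 variant E-box, 106 bases before the start. None of these motifs was in the Bmal1 window. Over all 10 genes, an E-box was found upstream of 3 (Per1, Cry1 and Ciart, with 3 of them in Ciart), the variant upstream of 3, a D-box upstream of 2 (Per2 and Per3) and a RORE core upstream of 1 (Dbp). Of 21770 protein-coding genes, 6.26% held the E-box in a window of this length, 4.16% the variant, 5.33% the D-box, 2.17% the RORE core and 1.69% the CRE, which none of the 10 genes held. A match describes the letters and does not show binding, and the lack of a match in this window says nothing about the rest of the gene.

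2 libraries stood apart from the other 10: that of mouse 16 in the SCA1 sedentary group and that of mouse 55 in the SCA1 exercise group. Reads mapping to several places made up 6.38% and 6.33% of their read pairs, against 2.08% to 3.46% in the others. The summed level of 6 Hox genes, which mark hindbrain tissue outside the cerebellum, was 26.2 CPM in mouse 16 and 31.0 CPM in mouse 55, against 0.0417 to 2.14 CPM in the others (CPM, counts per 1e6 reads on genes). Markers of the cerebellum were present in every library: Calb1, a marker of Purkinje cells, ranged from 315 to 669 CPM, and Gabra6, a marker of granule cells, from 284 to 535 CPM, with mouse 16 lowest for both. Libraries held 20556802 to 32127508 reads on genes, and the least counted of the 10 genes in any library was Ciart with 327 reads in mouse 16. The fits were repeated without mice 16 and 55.

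Compared per length of canonical transcript, Dbp was the most abundant of the 10 transcripts and Bmal1 the least by median. Reads on all exons were counted, and the exons of Dbp together span 3470 bases against 1837 in its canonical transcript. Those of Nr1d1 span 3242 against 2721 bases, so the order of these 2 genes depends on the length used. The exons of Cry2 span 8585 against 4138 bases, those of Per3 10491 against 6017 and those of Bmal1 11573 against 4266. The order of other genes thus depends on the length too. The median over 12 mice was 57.7 CPM per kb for Dbp, 49.3 for Nr1d1, 36.9 for Nr1d2 and 36.7 for Cry2. Per3 and Per1 followed with medians of 22.8 and 20.4 CPM per kb. Per2, Cry1, Ciart and Bmal1 had medians of 15.0, 14.3, 11.4 and 9.90 CPM per kb. Along this order, neighbours overlapped in their ranges over the mice except at 2 places: all values of Nr1d1 lay above those of Nr1d2, by a margin of 40.9 against 40.8 CPM per kb, and those of Cry2 lay above those of Per3, at 32.4 against 26.2 CPM per kb.

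**Figure D1:**
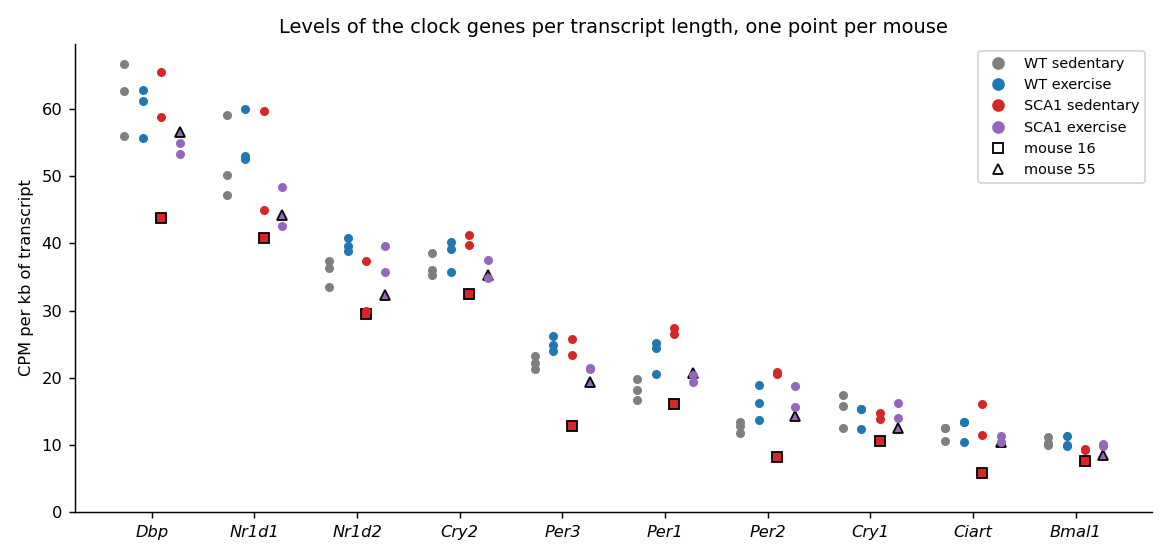
Level of each clock gene in CPM per kb of its canonical transcript (vertical axis), genes ordered by their median, with 1 point per mouse coloured by group. Dbp, with a median of 57.7, and Nr1d1, with 49.3, lie highest, and the square of mouse 16 is the lowest point of every gene.

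The first question was whether clock transcripts differed after weeks of access to a wheel. In edgeR's quasi-likelihood test none of the 10 genes was called for exercise in WT, for exercise in SCA1, or over both genotypes. A call needed a Benjamini-Hochberg adjusted p below 0.05 together with a log2FC beyond 0.5 in size, and 0% of all genes met it in these comparisons. At an unadjusted p under 0.05, 0 of the 10 passed for exercise in WT, in SCA1 and over both, where 4.69%, 2.17% and 3.54% of all genes did. Without mice 16 and 55 it was 3 of 10 for exercise in WT (Per1, Per2 and Per3, higher) against 13.3% of all genes, 2 of 10 in SCA1 (Per1 and Per3, lower) against 8.79%, and 1 of 10 over both (Nr1d2, higher) against 6.48%. With only the WT groups fitted it was 4 of 10 against 16.6%, and with only the SCA1 groups 0 of 10 against 0.669%. DESeq2 also called none of the 10 in these comparisons. Of 35116 genes it called 63 for exercise in WT, 1 in SCA1 and 6 over both genotypes. The 95% intervals were wide for Per2, from -0.22 to 0.95 in WT on the log2 scale, and narrower for Bmal1, from -0.26 to 0.24, so changes within these intervals could not be told from none with 3 mice a group.

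In genotype comparisons none of the 10 was called either: 0 of 10 against 0.0344% of all genes in sedentary mice, 0 of 10 against 0% in exercised mice, and 0 of 10 against 0.118% over both treatments. At an unadjusted p under 0.05, 1 of 10 passed in sedentary mice and 1 of 10 over both treatments, Bmal1 each time, where 10.1% and 9.81% of all genes did, and 0 of 10 in exercised mice, where 2.93% did. For the interaction, which asks whether exercise acted differently in SCA1 and WT, 0 of 10 was called against 0%, and 1 of 10, Per1, had an unadjusted p under 0.05 against 3.78% of all genes. When mice 16 and 55 were left out, the counts at an unadjusted p under 0.05 were 2 of 10 in sedentary mice against 20.2%, 3 of 10 in exercised mice (Per1, Per3 and Nr1d1, lower) against 6.88%, 2 of 10 over both treatments (Per1 and Per2, higher) against 11.7%, and 3 of 10 for the interaction (Per1, Per2 and Per3) against 14.8%. With only the exercised groups fitted it was 3 of 10 against 8.22%, and with only the sedentary groups 0 of 10 against 5.97%. DESeq2 called none of the 10 in these comparisons. Of 35116 genes it called 201 in sedentary mice, 3 in exercised mice, 179 over both treatments and 2 for the interaction. The sedentary WT mice serve in both the exercise comparison in WT and the genotype comparison in sedentary mice, so the values of those comparisons are not independent.

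**Figure D2:**
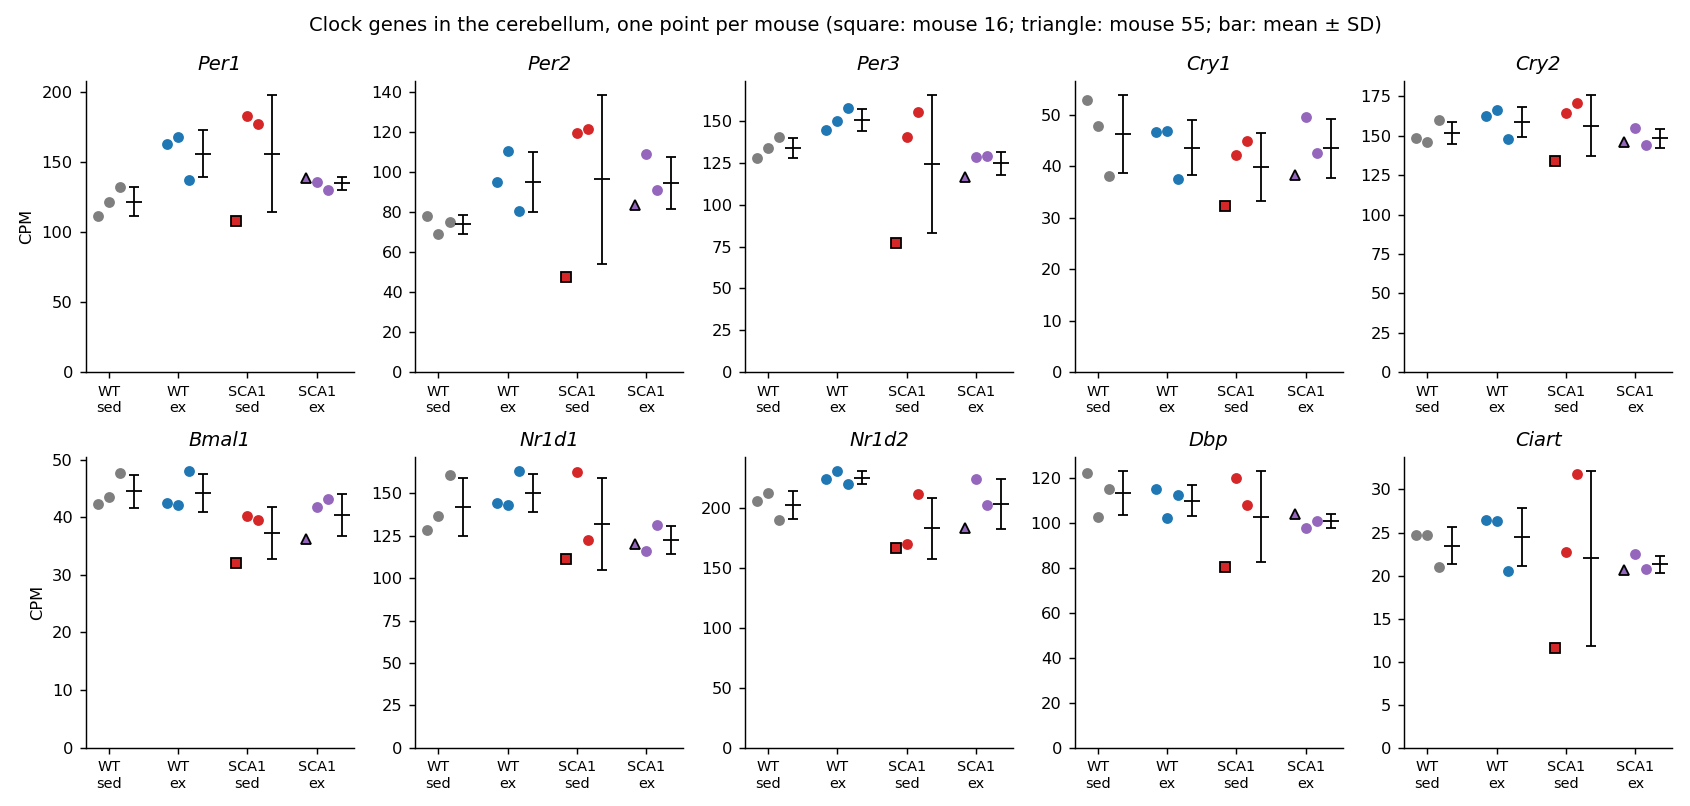
CPM of each clock gene (vertical axis, from 0) in each of 12 mice, by group (sed, sedentary; ex, exercise), with the mean ± SD of 3 mice beside the points. The square, mouse 16, is the lowest of the 12 values in all 10 panels, and the Per1 and Per2 points of the other SCA1 sedentary mice are the highest.

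Mouse 16 was the lowest of the 12 mice for all 10 genes, while it was the lowest for 23.0% of all genes tested. Its Ciart level was 50.9% of the median of the other 11 mice, its Per2 level 52.1% and its Per3 level 55.0%. Cry2 was the least reduced, at 86.5%, and over all genes tested the median was 99.4%. Among 20 other genes of the clock, mouse 16 was lowest for 6 and highest for 5. This mouse also had the highest level of Fos, an early-response gene of active neurons, at 45.9 CPM against 2.11 to 15.7 CPM in the other 11. Whether these or the brainstem and mapping values had a part in its clock gene levels was not tested. In bulk tissue, fewer cells of a type and less RNA per cell cannot be told apart.

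Bmal1 (ENSMUSG00000055116, chr7:112806152-112914735, plus strand), the activator, was lower in SCA1 than in WT mice by a small amount that did not pass adjustment. WT sedentary mice had 42.3, 43.5 and 47.7 CPM and WT exercise mice 42.5, 42.2 and 48.1 CPM. SCA1 sedentary mice had 32.1 (mouse 16), 40.2 and 39.6 CPM and SCA1 exercise mice 36.3, 41.7 and 43.2 CPM. The sedentary groups did not overlap, with every SCA1 value under every WT value, while the exercised groups did. The log2FC of SCA1 against WT was -0.26 ± 0.12 (SE) in sedentary mice (edgeR adjusted p = 0.488) and -0.19 ± 0.08 over both treatments (edgeR adjusted p = 0.479). An exact two-sided permutation of genotype within each treatment, with 400 arrangements and a smallest possible p of 0.005, gave p = 0.02 for Bmal1, and 1 of the 10 genes passed 0.05 there against 8.71% of all genes. These log2FCs were -0.14 ± 0.10 in sedentary mice and -0.09 ± 0.07 over both treatments without mice 16 and 55. Exercise gave log2FCs of -0.01 ± 0.12 in WT and 0.12 ± 0.12 in SCA1, and the groups overlapped in both.

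Per1 (ENSMUSG00000020893, chr11:68986035-69002300, plus strand), a repressor that also responds quickly to activity, was higher in each WT exercise mouse than in any WT sedentary mouse. WT sedentary mice had 112, 122 and 132 CPM and WT exercise mice 163, 168 and 137 CPM. SCA1 sedentary mice had 108 (mouse 16), 183 and 178 CPM, the lowest value and the 2 highest of all 12, and SCA1 exercise mice had 139, 136 and 130 CPM. The log2FC of exercise was 0.36 ± 0.17 in WT, a 1.28-fold ratio (edgeR adjusted p = 0.958), and -0.21 ± 0.17 in SCA1 (edgeR adjusted p = 0.999). In SCA1 it was -0.44 ± 0.11 without mice 16 and 55, with a 95% interval of -0.68 to -0.21, and -0.42 without mouse 16 alone, and neither passed adjustment. The interaction was -0.57 ± 0.24 with a 95% interval of -1.08 to -0.06 (edgeR adjusted p = 0.9999). It was -0.81 ± 0.14 without mice 16 and 55 (edgeR adjusted p = 0.0841, the lowest of 20 fits in which it ranged up to 1). The interaction did not pass the adjusted threshold in either fit. Of 9 tested activity genes, which neurons induce quickly on firing, 9 had a negative log2FC of exercise in SCA1 with a median of -0.85. Of these, 4 had an unadjusted p below 0.05 against 2.17% of all genes, and 0 were called. The median was -0.44 without mice 16 and 55, and 0 of 9 had such a p against 8.79% of all genes. Their part in the Per1 values was not tested.

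In sedentary mice the log2FC of Per1 in SCA1 against WT was 0.36 ± 0.17 (edgeR adjusted p = 0.503), and the groups overlapped through mouse 16 alone. Without mice 16 and 55, Per1 was called as higher in SCA1, with a log2FC of 0.59 ± 0.10 (edgeR adjusted p = 0.0144), and Per2 likewise, with 0.73 ± 0.12 (edgeR adjusted p = 0.0139). Over 21 fits the adjusted p of both ranged up to 0.930. That was 2 of the 10 genes against 0.586% of all genes called higher in that fit, and it rests on 2 SCA1 sedentary mice, which are assumed to vary like the other groups. Both mice came from the same range of mouse numbers as mouse 192 of the WT sedentary group, the other WT sedentary mice being 116 and 117. Mouse 55 ran and is not in the sedentary groups, so it enters this comparison only through the shared model. Without mouse 16 alone, 0 of 10 genes were called in sedentary mice, with a smallest edgeR adjusted p of 0.0602. In exercised mice the Per1 log2FC was -0.21 ± 0.17, with overlapping groups.

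Per2 (ENSMUSG00000055866, chr1:91343700-91387069, minus strand), a further PER repressor, had, with all 12 mice, the widest spread of the 10 genes between mice of a group, with an SD of 0.42 on the log2 scale against a median of 0.27 over all genes tested. WT sedentary mice had 77.8, 68.8 and 75.0 CPM, and WT exercise mice had 94.8, 110 and 80.3 CPM, all above the sedentary mice. SCA1 sedentary mice had 47.5 (mouse 16), 120 and 122 CPM, and SCA1 exercise mice had 83.8, 109 and 91.3 CPM. The log2FC of exercise was 0.36 ± 0.27 in WT (edgeR adjusted p = 0.958) and -0.02 ± 0.27 in SCA1 (edgeR adjusted p = 0.999), and the interaction was -0.39 ± 0.38. Without mice 16 and 55 the spread of Per2 was 0.16, below that of Ciart (0.20), Cry1 (0.19) and Nr1d1 (0.17) and beside a median of 0.19 over all genes. In that fit the log2FC of exercise in SCA1 was -0.27 ± 0.13, and the interaction was -0.64 ± 0.17 (edgeR adjusted p = 0.188, from which it ranged up to 1 over 20 fits). Over both treatments the Per2 log2FC of SCA1 against WT was 0.19 ± 0.19 with all mice and 0.41 ± 0.09 without these mice (edgeR adjusted p = 0.0340, with a range up to 0.940 over 20 fits), which is under the fold limit of 0.5.

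Per3 (ENSMUSG00000028957, chr4:151081373-151129140, minus strand) is the third PER repressor, and its log2FCs were smaller than those of Per1 and Per2 for exercise in WT. WT sedentary mice had 128, 134 and 140 CPM and WT exercise mice 145, 150 and 158 CPM, so these groups did not overlap. SCA1 sedentary mice had 77.2 (mouse 16), 140 and 155 CPM, and SCA1 exercise mice had 117, 129 and 129 CPM, each below every WT exercise mouse. The log2FC of exercise was 0.17 ± 0.19 in WT and 0.01 ± 0.19 in SCA1, and that of genotype was -0.11 ± 0.19 in sedentary and -0.27 ± 0.19 in exercised mice (edgeR adjusted p from 0.882 to 0.999). Leaving out mice 16 and 55 turned the direction in SCA1, to -0.20 ± 0.08 for exercise, and in sedentary mice, to 0.16 for genotype.

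The cryptochromes, which repress together with the PER proteins, did not separate any 2 groups. Cry1 (ENSMUSG00000020038, chr10:84967560-85021252, minus strand) ranged from 32.3 CPM in mouse 16 to 53.0 CPM in WT sedentary mouse 116, with a median of 43.7 CPM. Its log2FC of exercise was -0.09 ± 0.16 in WT and 0.13 ± 0.16 in SCA1. Cry2 (ENSMUSG00000068742, chr2:92233894-92264474, minus strand) had, with all 12 mice, the smallest spread of the 10 genes, from 134 to 170 CPM with a median of 152 CPM and a spread within groups of 0.11 on the log2 scale. Leaving out mice 16 and 55, its spread was 0.073 and that of Per3 was smaller, at 0.068. Its log2FC of exercise was 0.07 ± 0.10 in WT, with a 95% interval of -0.15 to 0.29, and -0.08 ± 0.10 in SCA1, where it was -0.17 ± 0.09 without these mice.

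Ciart (ENSMUSG00000038550, chr3:95785815-95789991, minus strand), which acts as a repressor of BMAL1 and CLOCK, had the fewest reads and a spread of 0.39 on the log2 scale. WT sedentary mice had 24.7, 24.7 and 21.0 CPM, WT exercise mice 26.4, 26.4 and 20.6 CPM, and SCA1 exercise mice 20.7, 22.5 and 20.7 CPM. SCA1 sedentary mice held both extremes, with 11.6 CPM in mouse 16 and 31.8 CPM in mouse 195, and 22.7 CPM in mouse 194. The groups overlapped in every comparison, and the log2FC of exercise was 0.06 ± 0.26 in WT and -0.05 ± 0.27 in SCA1. In SCA1 it was -0.34 ± 0.17 without mice 16 and 55.

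Nr1d1 and Nr1d2, the nuclear receptors that repress Bmal1, differed from each other in pattern. Nr1d2 (ENSMUSG00000021775, chr14:4230545-4266624, plus strand) was higher in each WT exercise mouse, at 225, 231 and 220 CPM, than in any WT sedentary mouse, at 206, 212 and 190 CPM. In SCA1 mice it was 167 (mouse 16), 170 and 212 CPM without a wheel and 183, 224 and 202 CPM with one, and these groups overlapped. Its log2FC of exercise was 0.15 ± 0.11 in WT and 0.15 ± 0.11 in SCA1, and 0.15 ± 0.08 over both genotypes (edgeR adjusted p = 0.945). An exact permutation of treatment within each genotype gave p = 0.055 for Nr1d2, the lowest of the 10 genes, and 0 of 10 passed 0.05 against 3.76% of all genes.

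Nr1d1 (ENSMUSG00000020889, chr11:98658752-98666188, minus strand) was lower in each SCA1 exercise mouse, at 120, 116 and 132 CPM, than in any WT exercise mouse, at 144, 143 and 163 CPM. It was 128, 137 and 161 CPM in WT sedentary mice and 111 (mouse 16), 162 and 122 CPM in SCA1 sedentary mice, which overlapped. The log2FC of SCA1 against WT was -0.29 ± 0.14 in exercised mice (edgeR adjusted p = 0.960) and -0.11 ± 0.14 in sedentary mice. The log2FC of exercise was 0.08 ± 0.14 in WT and -0.11 ± 0.14 in SCA1, or -0.21 ± 0.13 in SCA1 without mice 16 and 55. Nr1d1 overlaps Thra on the opposite strand, and 26.6% of the reads over its exons lay on that other strand, which the stranded counts used here leave out.

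Dbp (ENSMUSG00000059824, chr7:45354512-45359627, plus strand), the output factor that acts on D-boxes, overlapped in level between all groups. WT sedentary mice had 122, 103 and 115 CPM, WT exercise mice 115, 102 and 112 CPM, SCA1 sedentary mice 80.5 (mouse 16), 120 and 108 CPM, and SCA1 exercise mice 104, 98.0 and 101 CPM. Its log2FC of exercise was -0.04 ± 0.13 in WT, with a 95% interval of -0.33 to 0.24, and -0.03 ± 0.13 in SCA1. The SCA1 value was -0.20 ± 0.10 without mice 16 and 55. Dbp overlaps Sphk2 on the opposite strand, and the unstranded count, which drops reads that fit both genes, was 62.7% of the stranded one.

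Over the 4 comparisons between pairs of groups, the values of 3 mice against 3 did not overlap for 4 of the 10 genes for exercise in WT (Per1, Per2, Per3 and Nr1d2, all higher), where 21.2% of all genes did not. For exercise in SCA1 it was 0 of 10 against 4.5%. For genotype it was 1 of 10 (Bmal1) against 11.4% in sedentary mice and 2 of 10 (Per3 and Nr1d1, lower) against 14.2% in exercised mice. An exact permutation test of 3 against 3 cannot go below p = 0.1. The median log2FC of the 10 genes was 0.07 for exercise in WT and -0.03 for exercise in SCA1, beside 0.00 and -0.01 over all genes tested, and -0.11 for genotype in sedentary and -0.14 in exercised mice, beside 0.02 and 0.00. Leaving out mice 16 and 55 gave medians of 0.08 for exercise in WT, -0.20 for exercise in SCA1, 0.09 for genotype in sedentary mice, where 7 of 10 log2FCs were then positive against 3 of 10 with all mice, and -0.11 in exercised mice. In exercised mice all 10 log2FCs of genotype were negative with all mice and 8 of 10 without these mice, Per2 (0.09) and Cry1 (0.09) being positive, and the comparison shares its WT exercise mice with the exercise comparison.

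**Figure D3:**
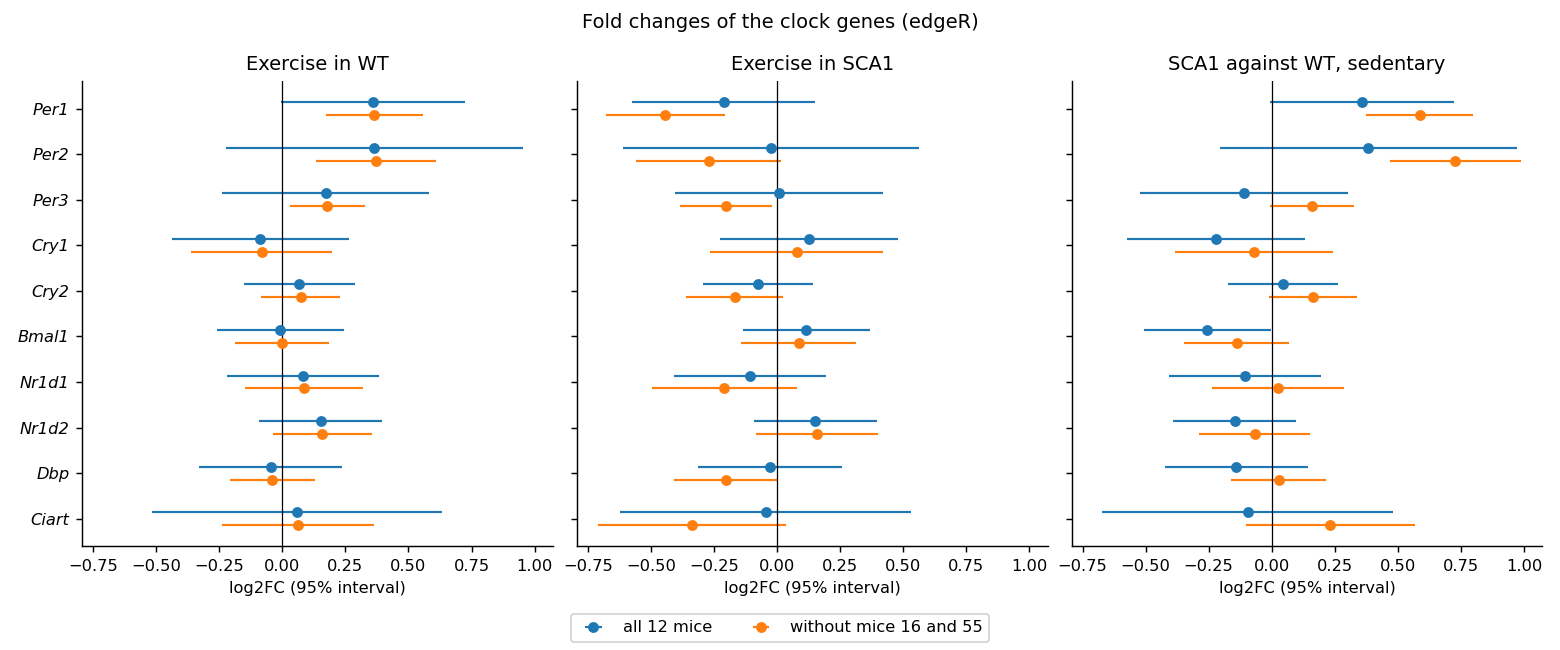
log2FC (horizontal axis) of the 10 clock genes with 95% intervals from edgeR for exercise in WT, exercise in SCA1 and genotype in sedentary mice, with all 12 mice and without mice 16 and 55. With all mice the intervals cross 0 for every gene but Bmal1 in the genotype panel; without these mice the Per1, Per2 and Per3 intervals lie above 0 for exercise in WT, those of Per1 and Per3 lie below 0 for exercise in SCA1, and those of Per1 and Per2 lie above 0 for genotype.

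The genes of the clock are set apart in time of day, so the relations between them over mice were also described. Over the 12 libraries, 44 of the 45 pairs of genes correlated positively on log2 CPM, with a median Pearson's r of 0.57, and 16 pairs passed an adjusted p of 0.05 (two-sided permutation, 100000 resamples, Benjamini-Hochberg over 45 pairs). Between the 10 genes and the 14859 genes with an average log2 CPM of at least 1, the median r was -0.02. How many of those relations pass adjustment was not counted, so whether 16 of 45 is more than usual in these libraries is not known. Without mice 16 and 55, 26 pairs were positive and 19 negative, the median r was 0.09, and 0 pairs passed by Pearson's r or by Spearman's rho. Leaving out mouse 16 alone also left 0 pairs. As deviations from the group means, 43 pairs were positive and 0 passed (exact permutation within groups). Without mice 16 and 55 these deviations gave 22 positive and 23 negative pairs, and 0 passed.

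The pairs among Per1, Per2 and Cry2 had r above 0.7 with and without these mice, although without them none passed adjustment. Values beyond 0.7 in size were not rare in these libraries. Of the relations between the 10 genes and the 14859 genes, 16.5% had such an r over 12 libraries. Without mice 16 and 55 it was 6.64%. For Per1 and Per2 r was 0.85 over 12 mice (permutation p = 0.00025, adjusted p = 0.00765; rho = 0.87, adjusted p = 0.0225). It was 0.77 without the 2 libraries farthest from the median of Per1, and 0.83 without mice 16 and 55 (permutation p = 0.00528 and adjusted p = 0.119, 10 mice). For Per1 and Cry2 r was 0.87 over 12 mice (permutation adjusted p = 0.00765; rho = 0.77, adjusted p = 0.0773) and 0.85 without mice 16 and 55 (permutation adjusted p = 0.119). Leaving out the 2 farthest libraries gave 0.81 for this pair and 0.64 for Per2 and Cry2. For Per2 and Cry2 the values were 0.83 (permutation adjusted p = 0.0112) and 0.72 (permutation adjusted p = 0.238). Within groups r was 0.91, 0.94 and 0.93 for these 3 pairs, with exact permutation adjusted p of 0.285, 0.150 and 0.139. These values include mouse 16. Without mice 16 and 55 the within-group r was 0.61, 0.83 and 0.83, with exact permutation adjusted p of 0.536, 0.199 and 0.234.

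**Figure D4:**
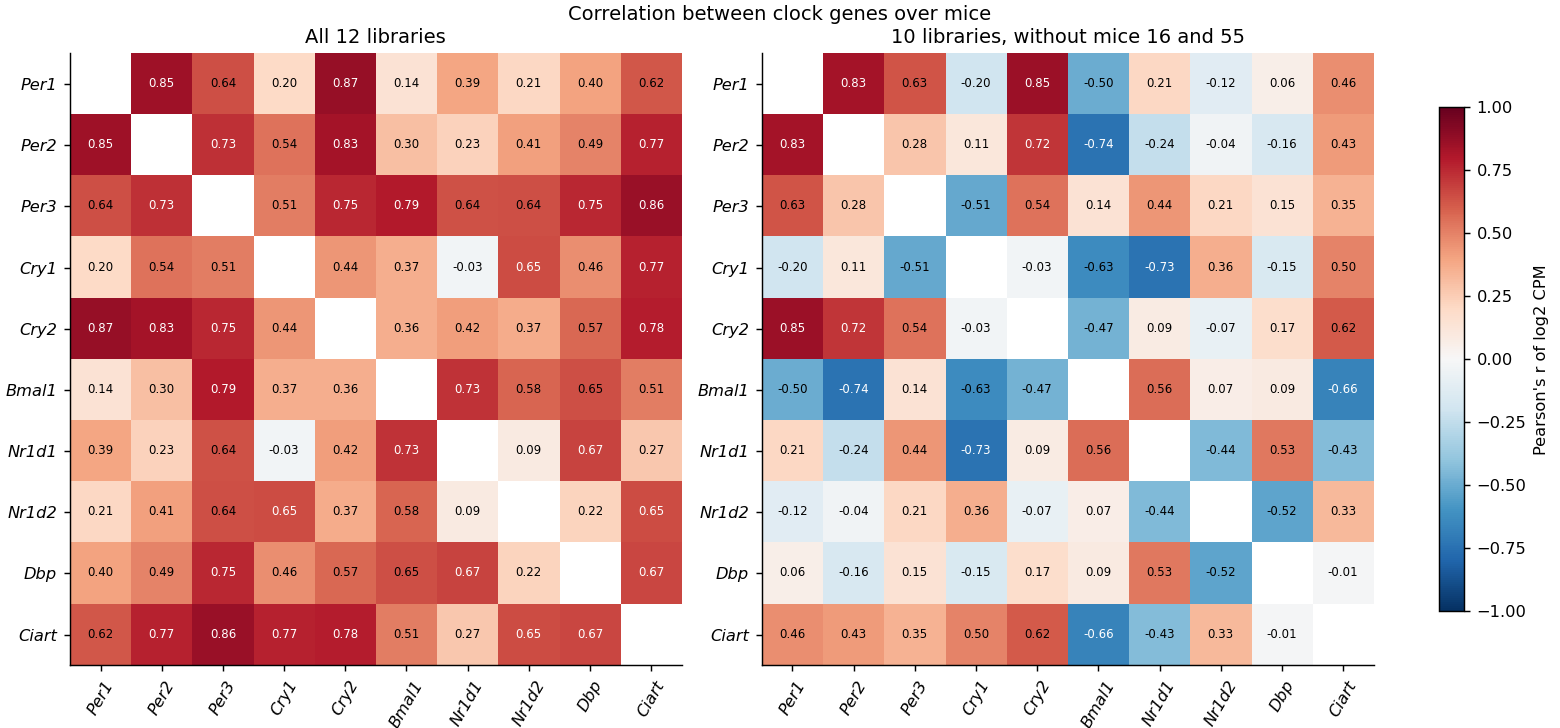
Pearson's r of log2 CPM between each pair of clock genes over all 12 libraries (left) and over 10 libraries without mice 16 and 55 (right), with red for positive and blue for negative values. The left panel is positive in 44 of 45 pairs, and the right panel is negative in 19, among them Per2 with Bmal1 at -0.74.

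Bmal1, whose transcript peaks opposite to many of the other genes in a cycling tissue, was positively related to Per2 over 12 mice (r = 0.30, permutation adjusted p = 0.410) and negatively without mice 16 and 55 (r = -0.74, permutation p = 0.0119 and adjusted p = 0.179; rho = -0.84, adjusted p = 0.0941; 10 mice). Without the 2 libraries farthest from the median it was -0.37. Cry1 and Nr1d1 had r of -0.03 over 12 mice and -0.73 without mice 16 and 55 (permutation adjusted p = 0.185, 10 mice). Bmal1 and Nr1d1 were positive in both, with r of 0.73 (permutation adjusted p = 0.0304) and 0.56 (permutation adjusted p = 0.407). None of the negative relations passed adjustment.

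Dbp and Bmal1 kept a narrower ratio over the mice than Per2 and Bmal1. The log2 ratio of Dbp to Bmal1, which compares CPM of 2 transcripts and is described without a test, lay between 1.22 and 1.58 in all 12 libraries. Its mean was 1.35 ± 0.16 for WT sedentary and 1.31 ± 0.11 for WT exercise mice (SD, n = 3 each). For SCA1 it was 1.45 ± 0.13 without a wheel and 1.32 ± 0.17 with one. The ranges of all 4 groups overlapped. With unstranded counts, which drop reads that fit both Dbp and Sphk2, the ratio was lower, from 0.63 in mouse 122 to 0.99 in mouse 194. The log2 ratio of Per2 to Bmal1 ranged more widely, from 0.57 in mouse 16 to 1.62 in mouse 195, both SCA1 sedentary.

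**Figure D5:**
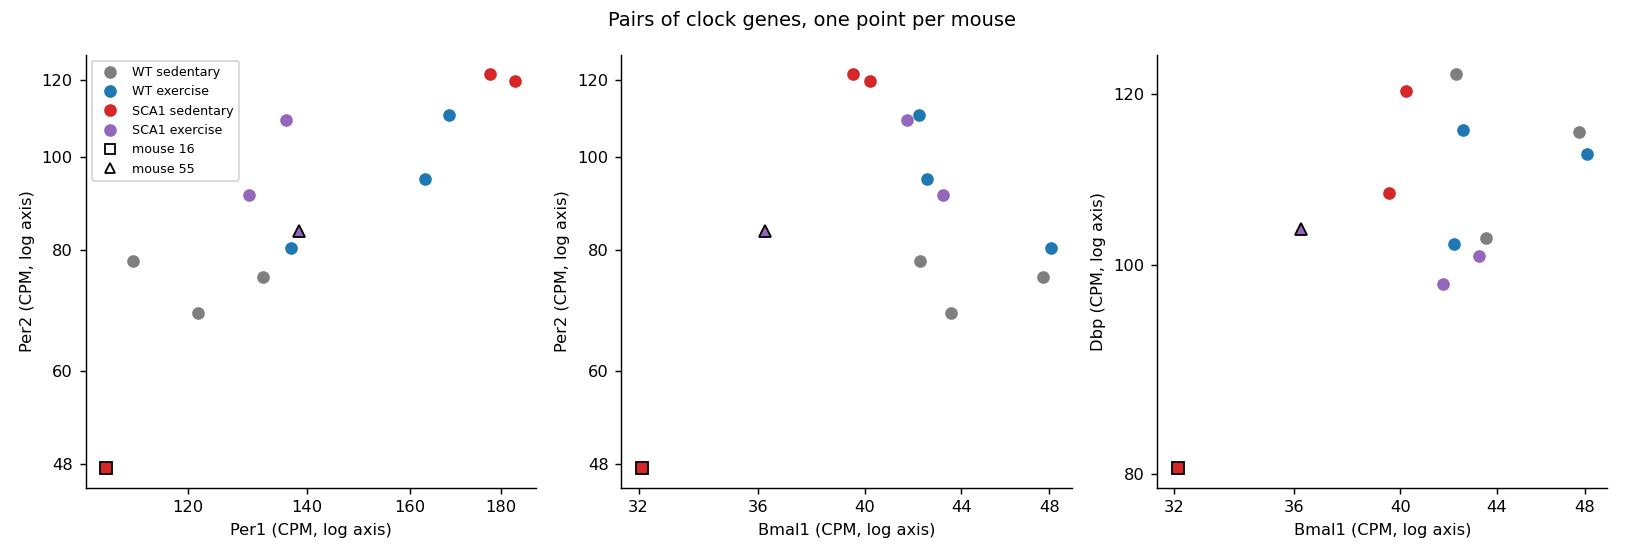
CPM of pairs of clock genes on log axes, 1 point per mouse coloured by group: Per2 against Per1, Per2 against Bmal1, and Dbp against Bmal1. Mouse 16 lies at the lower left of each panel, and in the middle panel Per2 falls as Bmal1 rises over the 10 mice other than 16 and 55 (r = -0.74).

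A measure of the libraries moved with several of these genes. The share of read pairs that fell on no gene ranged from 39.3% in mouse 16 to 58.7% in mouse 195, and its Pearson's r with log2 CPM over 12 mice was 0.87 for Per3 (permutation adjusted p = 0.0011; rho = 0.80, adjusted p = 0.0249). It was 0.76 for Per2 (permutation adjusted p = 0.0214; rho = 0.69, adjusted p = 0.0785) and 0.65 for Per1 (permutation adjusted p = 0.0338; rho = 0.60, adjusted p = 0.115). By Pearson's r 7 of these 10 relations had an adjusted p below 0.05, and by Spearman's rho 1 did, that of Per3. The same count was not made over all genes tested, so whether 7 of 10 is more than usual in these libraries is not known. Without mice 16 and 55, which are the 2 libraries farthest from the median share, 0 of 10 passed by either, and r was 0.68 for Per3, 0.57 for Per2 and 0.59 for Per1. The part of this share in the differences between groups was not tested.

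The genes most like Dbp over 12 mice, outside the 10 clock genes, were Fam53b (r = 0.93), Ubox5 (r = 0.93), Pcbp3 (r = 0.92), Daglb (r = 0.92) and Echdc2 (r = 0.92). Those most like Bmal1 were Ror1 (r = 0.95), Tspan9 (r = 0.94), Gm10814 (r = 0.93), Sorl1 (r = 0.92) and Rbl1 (r = 0.92). Over the 10 mice without 16 and 55, 0 of the 5 stayed in the list for Dbp and 0 of the 5 in that for Bmal1. Flt4 (r = 0.91) and 9330102E08Rik (r = 0.92) then led. None of the 10 genes of these first lists is a clock gene of the lists used here.

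Among 20 other genes of the clock, all of which had enough reads, 0 were called in edgeR for any of the 7 comparisons. For exercise over both genotypes, 1 of 20 had an unadjusted p under 0.05 against 3.54% of all genes. The largest log2FCs were those of Rora, an activator at ROREs (0.23 ± 0.10, edgeR adjusted p = 0.945), Hlf, a relative of Dbp (0.16 ± 0.10), and Bhlhe40, a repressor at E-boxes (0.14 ± 0.08). Rora had 375, 386 and 517 CPM in SCA1 sedentary mice and 514, 590 and 473 CPM in SCA1 exercise mice, which overlapped.

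Lists of genes for other influences on Per1 and Per2 and for other cell types gave the following summed levels. The 10 activity genes summed to 101 to 127 CPM in WT sedentary mice and 93.8 to 145 CPM with a wheel. In SCA1 mice the sums were 85.5 to 226 CPM without a wheel and 90.4 to 108 CPM with one. The 10 glucocorticoid response genes summed to 626 to 712 and 629 to 778 CPM in WT and to 549 to 738 and 679 to 843 CPM in SCA1, sedentary mice first. Both lists overlapped between all groups, and Fkbp5, which glucocorticoids induce, ranged from 8.21 to 21.8 CPM. Choroid plexus content did separate the WT groups, in which 21.2% of all genes, Per1, Per2, Per3 and Nr1d2 among them, did not overlap. Its 8 genes summed to 21.4 to 426 CPM without a wheel and 851 to 1973 CPM with one. Ttr, the defining gene, was at 3.89 to 382 and 732 to 1744 CPM. In SCA1 mice these genes summed to 29.2 to 1202 and 549 to 1651 CPM, which overlapped. Of the 8 genes, 8 had a positive log2FC of exercise in WT with a median of 2.88. Of these, 7 had an unadjusted p below 0.05 against 4.69% of all genes, and 0 were called. The 10 cerebellar neuron genes separated the sedentary groups, in which 11.4% of all genes, Bmal1 among them, did not overlap. Their sums were 4871 to 5735 CPM in WT and 2855 to 4245 CPM in SCA1. All 10 had a negative log2FC there, with a median of -0.57. Of these, 9 had an unadjusted p below 0.05 against 10.1% of all genes, and 1 was called against 0.0344%. With a wheel they summed to 5023 to 5535 CPM in WT and 4108 to 4966 CPM in SCA1. These sums did not overlap either, although the Bmal1 levels of the exercised groups did. The 8 brainstem genes summed to 30.7 to 40.5 CPM in WT and 38.1 to 212 CPM in SCA1 sedentary mice, and 2 of them were at 0 in every WT sedentary library. With a wheel they summed to 38.0 to 39.7 and 39.7 to 178 CPM. The 6 forebrain genes summed to 105 to 139 CPM in WT and 71.0 to 135 CPM in SCA1 mice, and the 5 erythrocyte genes to 15.5 to 74.3 and 19.8 to 81.3 CPM. The level of Xist marked 0 of 3 WT sedentary, 1 of 3 WT exercise, 1 of 3 SCA1 sedentary and 2 of 3 SCA1 exercise mice as female. The part of choroid plexus content, neuron content or sex in the clock gene values was not tested beyond a fit with chromosome Y genes as a covariate, which called none of the 10 genes.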

How the data were processed

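Cerebellar RNA of 12 mice was depleted of rRNA and sequenced in stranded, paired libraries. According to the submitters' processing notes and the methods of the study, the authors checked reads with FastQC, trimmed them with fastp 0.24.0 and aligned them to GRCm39 with STAR 2.7.10a. The deposited files hold STAR's raw count of reads per gene (unstranded, forward and reverse), which were not normalised by the authors. 2 of the study's samples had lower RNA integrity and another preparation, and were not identified here. The reverse-strand counts were used, since 5.54% to 6.01% of stranded reads lay on the other strand.

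Ensembl identifiers were matched to GENCODE M39, in which 56323 of 56941 had a name. CPM was computed with TMM library sizes, and log2 CPM with a prior count of 2. Groups, taken from the labels, were compared in edgeR 4.0.16 (R 4.3.3) by the quasi-likelihood test with filterByExpr, 1 model of the 4 groups, 7 contrasts and Benjamini-Hochberg adjustment over 20341 genes. DESeq2 1.42.0 was an alternative. The code was tested on simulated data. Intervals of log2FCs are 95%. Values after ± are standard errors for log2FCs. The genes named were all 10 clock genes, any of the 20 other clock genes called or with 1 of the 3 largest changes for exercise over both genotypes, the 5 genes most like Dbp and Bmal1, and defining markers. The clock genes and lists were chosen with earlier results of these data known. Libraries of a group differed by more than counting noise in every pair. Alternatives were another normalisation, filter, strand and sample set, a block for the range of mouse numbers (under 100, 100 to 150, over 150), a chromosome Y covariate and leaving out each mouse. Correlations used scipy 1.17.1 and numpy 2.4.6, and depth limits precision through the counts given. 1 result among the other clock genes is not reported here.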

Additional observations from a re-analysis of the deposited data

How the results depend on the processing

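With 3 mice a group, changes smaller than the intervals given could not be detected, the hour of collection is unknown, and most relations rest on mouse 16. None of the 10 genes was called for any comparison under another normalisation, filter, strand, tool or covariate or with 1 mouse left out, where the number called was 0 throughout. Without mice 16 and 55 together 2 genes, Per1 and Per2, were called for genotype in sedentary mice. No paired analysis was possible because the groups share no mouse numbers. For all genes the number called varied: for exercise in WT it was 0 in edgeR, 63 in DESeq2, 33 with the range of mouse numbers as a block, 45 with every gene counted at least once and 150 with only these groups fitted. For genotype in sedentary mice it was 7, 201, 55, 76 and 0.

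Of 306 log2FCs of the 10 genes under alternatives other than leaving out 1 mouse, 15 changed sign, and the cause was not tested. For exercise in WT, Cry1 was 0.0001211 with the block and Bmal1 0.002777 with 2 groups fitted. For exercise in SCA1, the block gave 0.10 for Per2, 0.0008742 for Dbp and 0.018 for Ciart, and Per3 was -0.001314 in DESeq2, -0.001934 with RLE size factors, -0.020 with the chromosome Y covariate and -0.20 without mice 16 and 55. For genotype in sedentary mice, leaving out mice 16 and 55 gave 0.16 for Per3, 0.024 for Nr1d1, 0.027 for Dbp and 0.23 for Ciart, and the block gave 0.030 for Cry1 and 0.081 for Ciart.

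With 1 mouse left out, 32 of 468 log2FCs changed sign. For exercise in WT, Cry1 ranged from -0.21 to 0.021, Bmal1 from -0.066 to 0.043, Dbp from -0.097 to 0.014 and Ciart from -0.016 to 0.17. For exercise in SCA1, Per2 ranged from -0.35 to 0.18, Per3 from -0.24 to 0.20, Cry1 from -0.003825 to 0.23, Nr1d1 from -0.22 to 0.080, Dbp from -0.18 to 0.11 and Ciart from -0.36 to 0.32. For genotype in sedentary mice, Per3 ranged from -0.30 to 0.14, Cry2 from -0.027 to 0.14, Nr1d1 from -0.30 to 0.004324, Dbp from -0.28 to 0.007437 and Ciart from -0.46 to 0.21. The interaction of Per3 ranged from -0.42 to 0.021.

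Against 16 correlated pairs of genes by Pearson's r, 1 passed by Spearman's rho, and there were 0 as deviations from the group means, 0 without mice 16 and 55, 0 without the 2 libraries farthest from the median and 0 as deviations within ranges of mouse numbers. With 1 mouse left out there were 0 to 22, with 0 without mouse 16, 9 without mouse 55, 10 without mouse 121, 8 without mouse 197 and 10 without mouse 198. The relation of Per2 and Bmal1 was -0.29 by rho, -0.74 without mice 16 and 55, -0.37 without the 2 farthest libraries and -0.40 within ranges of mouse numbers, and ranged from -0.45 to 0.41 with 1 mouse left out. That of Cry1 and Nr1d1 ranged from -0.48 to 0.12. The lists of genes most like Dbp and Bmal1 over 10 mice were an alternative chosen after seeing the data.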
